A study of Homo sapiens with 16 samples.

Results

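The 10 genes described here encode the machinery that presents peptides on MHC class II molecules. They were taken by name, not by their values, and make up 10 of the 32285 genes counted. Cd74 encodes the invariant chain, H2-Aa and H2-Ab1 the α and β chains of the class II molecule I-A, and H2-Eb1 the β chain of I-E. H2-DMa, H2-DMb1 and H2-DMb2 encode H2-DM, H2-Oa and H2-Ob encode H2-O, and Ciita encodes the class II transactivator. Their unique molecular identifiers (UMIs, which mark captured mRNAs) were summed over the cells of each deposited cluster name. The sums are stated per 1000000 UMIs of the same cells (CPM), for 22 cluster names in 3 experiments.

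Class II molecules carry peptides from endocytosed proteins to the surface, where CD4 T cells read them. New α and β chains bind the invariant chain, which is cut by lysosomal proteases such as cathepsin S until a short fragment is left in the groove. H2-DM removes this fragment and edits the peptides, and H2-O, known mainly from B cells and some dendritic cells, inhibits H2-DM. Dendritic cells, B cells and activated macrophages carry class II, and Ciita is needed for transcription of nearly all of these genes. FVB mice, the hosts here, have a haplotype without surface I-E.

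Tumors were mouse-derived syngeneic transplants from mice with an LPA1 receptor transgene in the mammary epithelium. LPA1-T22 (T22) responds to the PARP inhibitor olaparib and LPA1-T127 (T127) does not. Both were grown in the mammary fat pad of female FVB mice 6 weeks old and given oral olaparib at 50 mg/kg daily or vehicle. In the long-term experiment a mouse carried either model by itself (single strain) or both in opposite fat pads (co-transplantation), with treatment for 20 days. In the short-term experiments T22 or T127 was treated for 4 or 8 days. Each model is a transplanted tumor line, and the short-term models were captured in separate pools. In a difference between short-term T22 and T127, tumor line and library preparation therefore cannot be told apart. Hashtagged tumors were mixed, giving 8 long-term pools, 4 short-term T22 pools and 4 short-term T127 pools.

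The files used here link a cell to its pool and cluster name but not to its tumor. Vehicle and olaparib, 4 and 8 days, and single strain and co-transplanted tumors therefore cannot be told apart. The labels describe the 4 pools of a short-term model alike, so they were taken to hold the same mixed tumors and count as 1 sample. No p-value is therefore given, pools are given as a range, and intervals cover counting error only.

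The pools held 34755906 to 55600377 UMIs and 48824 cells, each barcode counted once. Long-term pools 1 and 2 shared 3939 cell barcodes, pools 2 and 3 shared 1082 and pools 1 and 3 shared 987, while the other 117 pairs of pools shared 0 to 11. Only the deepest copy was kept, and sums without these 3 pools are given beside some of the long-term levels. The median cell held 3105 to 11712 UMIs in long-term pools, 7730 to 8528 in T22 pools and 22712 to 26017 in T127 pools. Cluster names were checked against marker genes. C1qa, a macrophage complement gene, was at 8511.6 CPM in CD16-CDKN1C cells and 10024.6 CPM in Macro-M1 cells of the long-term pools. CD14-IL1B, named for a monocyte, had less C1qa (2334.3 CPM) and held dendritic cell genes in all 3 experiments. For Xcr1, a chemokine receptor of cross-presenting dendritic cells, these cells had 186.1, 575 and 311.7 CPM in long-term, T22 and T127 pools.

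The I-A chains split the long-term pools into a pair of sets that the sample labels do not describe. H2-Aa was high against H2-Ab1 in pools 1 to 4 and low in pools 5 to 8. In Macro-M1 cells there were 129.2, 114.3, 122.8 and 145.2 H2-Aa UMIs per 100 H2-Ab1 UMIs in pools 1 to 4. In pools 5 to 8 these cells had 78.4, 82.5, 69.2 and 65.6. The sets did not overlap in Macro-M1, Macro-M2, Macro-others, Macro-MKI67, CD16-CDKN1C, CD14-IL1B or pDC cells. For Malign_0 the ratio was 82.8 to 94.2 in pools 1 to 4 and 51.8 to 71.5 in pools 5 to 8. The sets overlapped in B cells (177.6 in pool 1, 182.4 in pool 6), in Malign_2 (59.33 in pool 1, 63.64 in pool 7) and in CD4_Tcm-TCF7 cells (55.56 in pool 2, 62.56 to 81.56 in pools 5 to 8).

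In the macrophage names the split lay in H2-Aa more than in H2-Ab1. In Macro-M2 cells H2-Aa was at 13776.1 CPM in pools 1 to 4 and 7740.7 CPM in pools 5 to 8, a ratio of 1.78. H2-Ab1 had a ratio of 1.03 and Cd74 of 1.33 between the same sets. In Macro-M1 cells H2-Aa had a ratio of 1.62 and H2-Ab1 of 0.929. In Malign_0 the split lay more in H2-Ab1, with ratios of 1.098 for H2-Aa and 0.7538 for H2-Ab1. Of 7001 genes in Macro-M2 cells, 886 (12.66%) were higher and 1495 (21.35%) lower in every pool of pools 1 to 4 than in every pool of pools 5 to 8. A ratio at least as large as that of H2-Aa was seen for 32 genes. Transplant setting, treatment and library preparation cannot be told apart between these pools. Long-term sums of all 10 genes in the myeloid names, B cells and pDC are therefore given with the pool range. Each set is read on its own for Macro-M1 and Macro-M2 and, further on, for CD14-PF4 cells. The 10 members were at 61369.3 CPM in Macro-M1 and 38273.9 CPM in Macro-M2 cells in pools 1 to 4, and at 51582.0 and 28523.7 CPM in pools 5 to 8, so Macro-M1 was above Macro-M2 in both.

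Most macrophage names and CD14-IL1B cells held the most class II transcripts in the long-term pools, B cells and plasmacytoid dendritic cells (pDC) an intermediate level, and malignant, stromal and T cells far lower levels. In the long-term pools the 10 genes summed to 55506.5 CPM in Macro-M1 cells (lowest pool 48863.7, median 56982.6, highest 63097.0). CD14-IL1B cells followed with 48082.0 CPM (44899.5, 49704.7 and 52048.5). Macro-others cells had 43191.7 CPM (36309.7, 42607.9 and 49484.6). Neighbours in this order overlapped in their pool ranges. Compared within a pool, Macro-M1 cells were above CD14-IL1B cells in every long-term pool (closest in pool 7, 53237.2 and 50694.5 CPM). CD14-IL1B cells were above Macro-others cells in every long-term pool (closest in pool 1, 48714.9 and 48173.9 CPM).

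CD16-CDKN1C cells had 36920.7 CPM (34811.0, 36435.0 and 40300.1) and Macro-M2 cells 33627.8 CPM (26005.9, 32847.6 and 40354.2), again with overlapping pools. Without pools 1 to 3, Macro-M2 cells had 30704.5 CPM. Proliferating Macro-MKI67 cells had 24728.4 CPM (16612.2, 25971.8 and 29229.8), and all 8 pools lay below those of CD16-CDKN1C. The 309 B cells had 23158.5 CPM (21248.5 to 31250.0 in the 7 pools with at least 10 such cells), and their pools overlapped those of Macro-MKI67. In T127, CD16-CDKN1C cells (9968.4 CPM) were below the 42 B cells (12843.9 CPM). CD14-PF4 cells, 98 in number, ranged from 9106.7 to 27127.4 CPM around 18841.6 CPM, and had 23300.7 CPM without pools 1 to 3. They had 9795.6 CPM in pools 1 to 4 and 23792.0 CPM in pools 5 to 8. Of the first set only pools 1 and 3 held at least 10 such cells (12088.2 and 9106.7 CPM), and both lay below pools 5 to 8. B cells had 27509.2 and 22460.3 CPM in the same sets, so the place of CD14-PF4 in the order depends on the set. The 170 pDC had 9724.7 CPM (7576.5 to 14066.1). The cluster names were made from expression in these same cells, and H2-Aa is in the authors' matrices of variable genes, so differences between cluster names are a description.

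**Figure D1:**
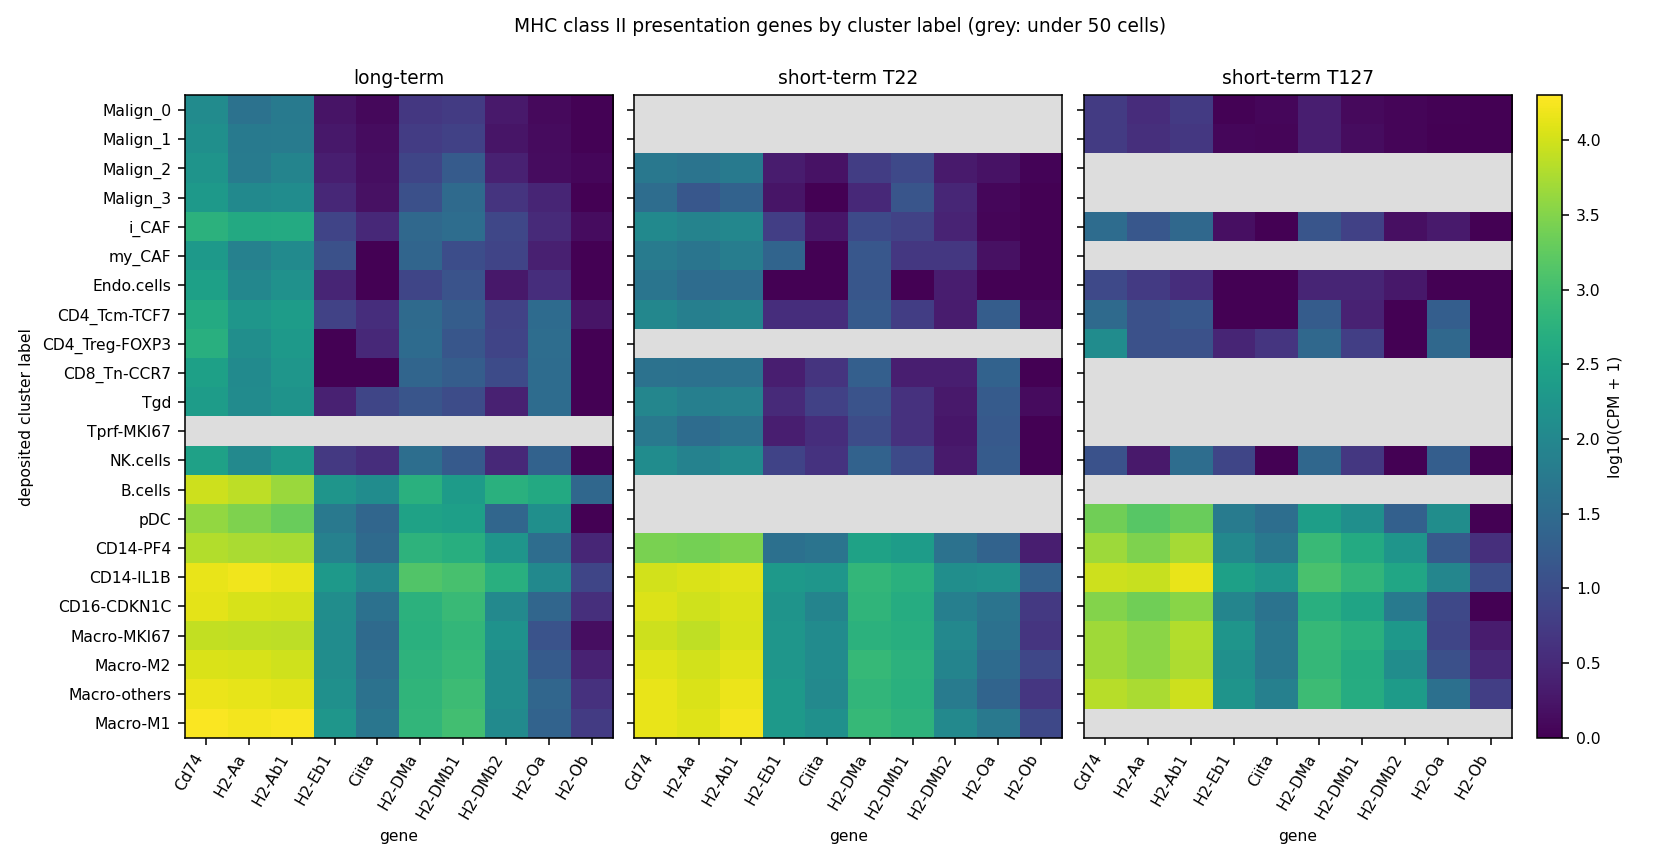
Levels of the 10 class II genes (columns) in each cluster name (rows) in the long-term, short-term T22 and short-term T127 pools, as log10(CPM + 1) in color, with grey where a cluster name held under 50 cells. Cd74, H2-Aa and H2-Ab1 are bright from B cells down to Macro-M1, while H2-Oa is brightest in B cells (407.8 CPM long-term) and H2-Ob is at 0 in pDC.

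The chains and the invariant chain made up nearly all of these sums. In long-term Macro-M1 cells Cd74 was at 18637.1 CPM (lowest pool 15132.6, median 19755.2, highest 21827.7). H2-Aa was at 16974.2 CPM (12576.1, 16925.0 and 22962.3) and H2-Ab1 at 17843.6 CPM (15809.7, 17725.1 and 19172.0). H2-Eb1, whose partner chain is missing in this haplotype, was still counted at 180.8 CPM in Macro-M1, 202.1 CPM in CD14-IL1B, 176 CPM in B cells and 128.7 CPM in Macro-M2. Reads were aligned to GRCm38, the C57BL/6 genome, which carries another haplotype than FVB at these polymorphic genes. Levels are therefore compared between cell types and experiments for the same gene, not between genes.

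Genes of the editing step and the transactivator followed another order than the chains in the long-term pools. H2-DMa was highest in CD14-IL1B cells at 1373 CPM (pools 1234.1 to 1611.9), above every pool of Macro-M1 cells (676.9 CPM, 564.7 to 733.6). B cells had 529.4 CPM of H2-DMa. In T22, H2-DMa was at 699 CPM in CD14-IL1B cells (551.3 to 801.5), with pools around the 746.3 CPM of Macro-M1 cells (733.4 to 757.4). In the long-term pools H2-DMb2 was at 545.8 CPM in B cells (407.2 to 642.4) and 509.8 CPM in CD14-IL1B cells (402.1 to 676.4). Their pools overlapped with each other and lay above all pools of Macro-M2 cells (124.9 CPM, 111.4 to 144.5) and of pDC (24.76 CPM, 12.77 to 40.08).

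H2-DMb1 placed long-term B cells lower, at 224.2 CPM (149.9 to 267.4), below 757.7 CPM in Macro-M2 (572 to 909.7) and 1107.4 CPM in CD14-IL1B (940.1 to 1347.4). The 2 β chain genes of H2-DM are near-identical copies, so reads shared between them could move counts from one to the other. B cells had 243.5 H2-DMb2 UMIs per 100 H2-DMb1 UMIs in the long-term, 405.3 in the T22 and 400 in the T127 pools. Macro-M2 cells had 16.48, 14.89 and 29.42, and pDC 9.274, 22.58 and 14.29. The ratio of H2-DMb2 to H2-DMb1 was thus higher in B cells than in Macro-M2 cells and pDC in all 3 experiments.

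In the long-term pools Ciita was counted highest in B cells, at 124.1 CPM (lowest pool 91.78, median 116.6, highest 152.7), and in CD14-IL1B cells, at 95.68 CPM (63.57, 101.2 and 116.3). Macro-M1 cells, which held more chain transcripts than both, had 48.4 CPM of Ciita (32.65, 49.38 and 61.25), below every B cell and CD14-IL1B pool. Macro-M2 cells had 32.78 CPM (25.46 to 35.97) and pDC 24.76 CPM (0 to 35.77). Per 100 UMIs of the I-A chains, Ciita came to 1.05 UMIs in B cells, 0.314 in CD14-IL1B and 0.16 in Macro-M2 cells. In the short-term pools Ciita was at 141.8 CPM in T22 Macro-M1 cells, 178.7 CPM in T22 CD14-IL1B cells and 179.2 CPM in T127 CD14-IL1B cells. B cells there had 117.2 CPM in T22 and 92.89 CPM in T127, from 25 and 11 UMIs, so they were not the highest in the short-term pools. Long-term and short-term pools were made separately, and time and batch cannot be told apart in these values.

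H2-O stood apart from the other genes in where it was found. In the long-term pools H2-Oa was highest in B cells at 407.8 CPM (lowest pool 101.8, median 422.2, highest 504.8), next in pDC at 135.6 CPM (93.52, 110 and 236.9) and CD14-IL1B cells at 109.6 CPM (86.98, 115.8 and 147.5). Macrophage names there had 11.52 to 25.04 CPM. In the short-term pools T22 CD16-CDKN1C cells had 43.29 CPM and T127 Macro-MKI67 cells 6.891 CPM of H2-Oa. Both H2-O genes together were at 248.4 CPM in B cells and 205.4 CPM in pDC of T22, and at 329.3 and 126.5 CPM in T127. H2-Ob was found in long-term B cells at 26.6 CPM from 21 UMIs, and at 42.18 and 50.67 CPM in the 38 T22 and 42 T127 B cells. In pDC no H2-Ob UMI was counted in any of the 3 experiments. A count of 3 UMIs would come to 3.229 CPM in the long-term, 8.931 CPM in the T22 and 2.853 CPM in the T127 pools.

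T cells and NK cells also held H2-Oa. CD4_Tcm-TCF7 cells had 30.88 CPM of H2-Oa in the long-term pools (95% interval 25.72 to 36.76), 17.77 CPM in T22 and 18.44 CPM in T127. Their H2-Ob was at 0.7351, 0.1825 and 0 CPM. NK cells had 21.34, 15.85 and 17.99 CPM of H2-Oa and no H2-Ob UMI. In malignant cells the H2-Oa level was 0.2636 CPM in Malign_0 and 1.774 CPM in Malign_3. After each cell was thinned to 3000 UMIs, H2-Oa was found in 5.556% to 10% of the T and NK cells by cluster name, against 0% to 0.441% of malignant cells in the long-term pools. Beside this H2-Oa, CD4_Tcm-TCF7 cells had 15.4 CPM of Cd79a, a B cell receptor gene, in the long-term pools, where B cells had 1675.5 CPM.

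Among B cells, pDC and the monocyte and macrophage names, the ratio of H2-O to H2-DM was high in B cells and pDC. It was low in the macrophage names, with CD14-IL1B cells between them. B cells had 33.43 H2-O UMIs per 100 H2-DM UMIs in the long-term pools (95% interval 29.5 to 37.81), 30.81 in T22 and 45.88 in T127. The pDC had 22.91, 42.33 and 30.57, all from H2-Oa, since no H2-Ob UMI was counted in them. CD14-IL1B cells had 3.896 (3.613 to 4.195), 12.21 and 4.582. Macro-M2 cells had 1.218, 2.738 and 0.9361, below the other 3 cell types in each experiment. In every macrophage and monocyte name other than Macro-others the T22 ratio was the highest of the experiments measured. CD16-CDKN1C cells had 4.009 in T22 and 0.8371 in T127, and Macro-MKI67 cells 3.654 and 0.5421. T and NK cells, low in both, also had much H2-O against H2-DM, so a high ratio was not particular to B cells and pDC. CD4_Tcm-TCF7 cells had 295 H2-O and 353 H2-DM UMIs in T22, and 12 and 12 in T127. NK cells had 147 and 281 in T22, and 18 and 30 in T127.

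**Figure D2:**
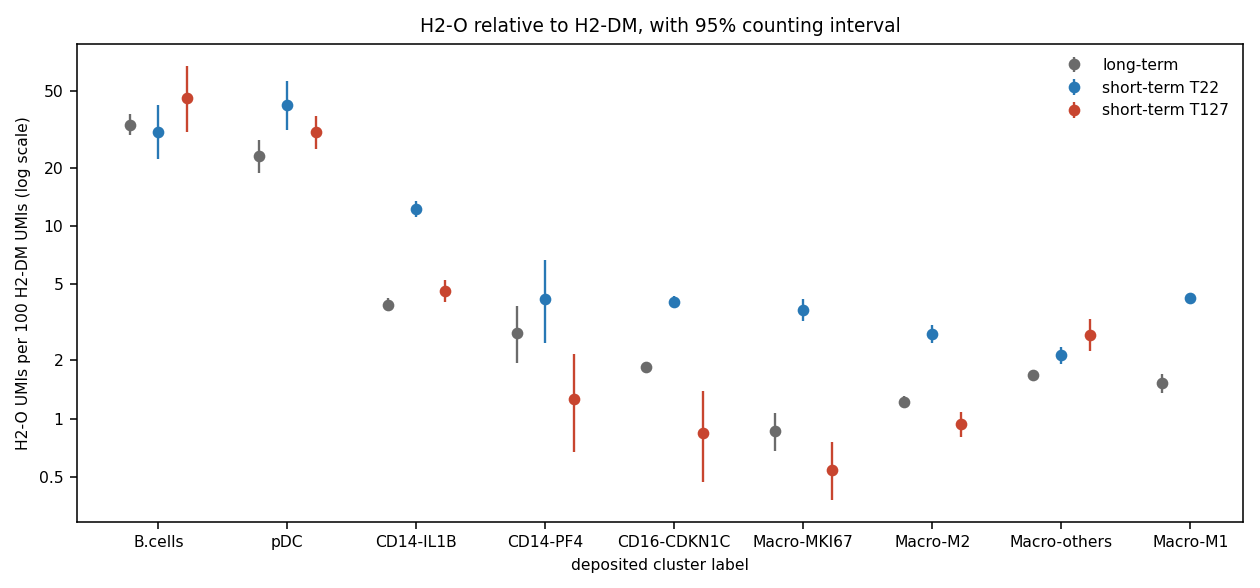
H2-O UMIs (H2-Oa and H2-Ob) per 100 H2-DM UMIs (H2-DMa, H2-DMb1 and H2-DMb2) by cluster name on a log scale, with 95% counting intervals. Drawn are B cells, pDC and the monocyte and macrophage names, where they held at least 30 cells, and not T or NK cells. B cells and pDC lie between 22.91 and 45.88 in all 3 experiments, above CD14-IL1B cells (3.896 to 12.21) and the macrophage names. The pDC values come from H2-Oa alone.

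Malignant, stromal and T cells held low levels of class II transcripts, beside transcripts of macrophage genes. The 10 genes summed to 226.1, 270, 342.7 and 492.6 CPM in Malign_0 to Malign_3 (228.6, 304.8, 348.2 and 568.8 CPM without pools 1 to 3), 545.3 CPM in endothelial cells, 449.9 CPM in my_CAF and 1491.9 CPM in i_CAF fibroblasts. Per 100 UMIs of the 3 C1q genes, the I-A chains had 138.9 to 166.7 UMIs in the malignant names, 135.9 to 142.6 in the stromal names, 138.9 in CD4_Tcm-TCF7 cells, 200 in regulatory T cells and 103 to 160.2 in the macrophage names. B cells, by comparison, had 3981.7 I-A UMIs per 100 C1q UMIs and pDC 2601.1. After thinning to 3000 UMIs, Cd74 was found in 28.91% to 39.91% of malignant cells and C1qa, which malignant cells should lack, in 8.919% to 11.8%. The ratio of the I-A chains to C1q in malignant cells thus lay close to that of macrophages in the same pools.

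Against the I-A chains, Cd74 was higher in malignant cells than in macrophages of the long-term pools. In the long-term pools there were 120.8, 118, 115.3 and 91.43 Cd74 UMIs per 100 UMIs of the I-A chains in Malign_0, Malign_1, Malign_2 and Malign_3. The 5 macrophage names (CD16-CDKN1C included) had 53.53 to 61.43, B cells 78.26 and pDC 78.96. Of the fibroblasts, my_CAF cells also had more Cd74 (208.8 CPM) than I-A chains (188.6 CPM), and i_CAF cells had less (573.1 and 838.9 CPM). Compared within a pool, the ratio was above that of every macrophage name in 8 of 8 pools for Malign_0, Malign_1 and Malign_2, and in 7 of 8 for Malign_3. In pool 8 Malign_3 had 67.68 and the macrophage names 65.75 to 71.83. In Malign_0 cells the pools ran from 98.97 to 182.1, and the highest macrophage value in any pool was 71.83.

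In the short-term pools the ratio of Cd74 to the I-A chains in Malign_0, Malign_1 and Malign_2 was lower than in the long-term pools, and in Malign_3 it was not. In T127, Malign_0 had 66.14 Cd74 UMIs per 100 I-A UMIs and Malign_1 67.2, each above every macrophage name in 3 of 4 pools. The macrophage names there had 46.12 to 56.83. In T22, Malign_2 had 52.17 and was above every macrophage name in 1 of 4 pools, and Malign_3 had 94.54 and was above in 4 of 4, from 173 Cd74 UMIs. Levels were also lower. The 10 genes summed to 168.7 CPM in T22 Malign_2, 85.46 CPM in T22 Malign_3, and 13.32 and 13.57 CPM in T127 Malign_0 and Malign_1. Cd74 was found in 1.352% to 1.523% of thinned T127 malignant cells, beside C1qa in 0.7157% to 1.608%.

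Regulatory T cells (CD4_Treg-FOXP3) also held Cd74 beyond the chains. The 113 long-term cells had 234 Cd74 UMIs against 154 UMIs of the I-A chains, or 151.9 per 100 (95% interval 123.5 to 187.4, pools 114.9 to 240). The 149 T127 cells had 69 Cd74 and 12 chain UMIs, or 575 per 100 (309 to 1166.4). CD4_Tcm-TCF7 cells, the other CD4 T cells, had 102.2 per 100 in the long-term pools (95.44 to 109.3), below the regulatory T cells, and 118.8 in T127 from 19 and 16 UMIs (57.84 to 246.9).

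H2-Eb1 in myofibroblasts (my_CAF) did not follow the I-A chains. In the T22 pools 129 such cells held 41 H2-Eb1 UMIs against 194 UMIs of the I-A chains, or 21.13 per 100 (95% interval 14.71 to 29.73). In the long-term pools they had 5.714 per 100, from 8 UMIs. The macrophage names had 0.5194 to 1.762 per 100. Inflammatory fibroblasts (i_CAF) had 2.994 per 100 in T22 (95% interval 2.109 to 4.133), and T127 NK cells had 20 per 100 from 7 and 35 UMIs (7.497 to 45.7). In T22 pool 3, 1 of 34 my_CAF cells held 76.47% of that pool's 204 UMIs of the 10 genes.

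Short-term T127 macrophages held less class II message than T22 macrophages under the same cluster name. The comparison asks how far the class II program of a cell type differed between the olaparib-resistant and the olaparib-sensitive model over 4 and 8 days. Cluster names with at least 50 cells in both models were compared, and a gene of at least 10 CPM in either model was called where it differed by at least 2-fold and the 4 pools of each model did not overlap. In Macro-M2 cells (1174 in T127, 670 in T22) the 10 genes summed to 14890.4, 15123.6, 16984.5 and 17061.2 CPM in the T127 pools. T22 pools had 35346.7, 36117.4, 40067.7 and 37866.1 CPM. The T127 level was 0.4293 of that in T22 (95% interval 0.427 to 0.4316), and the pools did not overlap.

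Among the monocyte and macrophage names CD16-CDKN1C cells differed most. T127 pools had 7112.5, 11242.6, 11704.6 and 9198.3 CPM of the 10 members and T22 pools 34665.0, 33937.2, 36016.9 and 33162.8 CPM, a ratio of 0.2889 (0.2849 to 0.2931). Macro-MKI67 cells had a ratio of 0.5624 and Macro-others cells of 0.5626, with pools that did not overlap. CD14-IL1B cells had a ratio of 0.9685 with overlapping pools (30906.1 to 40126.4 CPM in T127, 34782.7 to 37405.0 CPM in T22). CD14-PF4 cells, 66 in each model, had a ratio of 1.624, also with overlapping pools. Macro-M1 was not compared, since T127 held only 3 such cells.

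**Figure D3:**
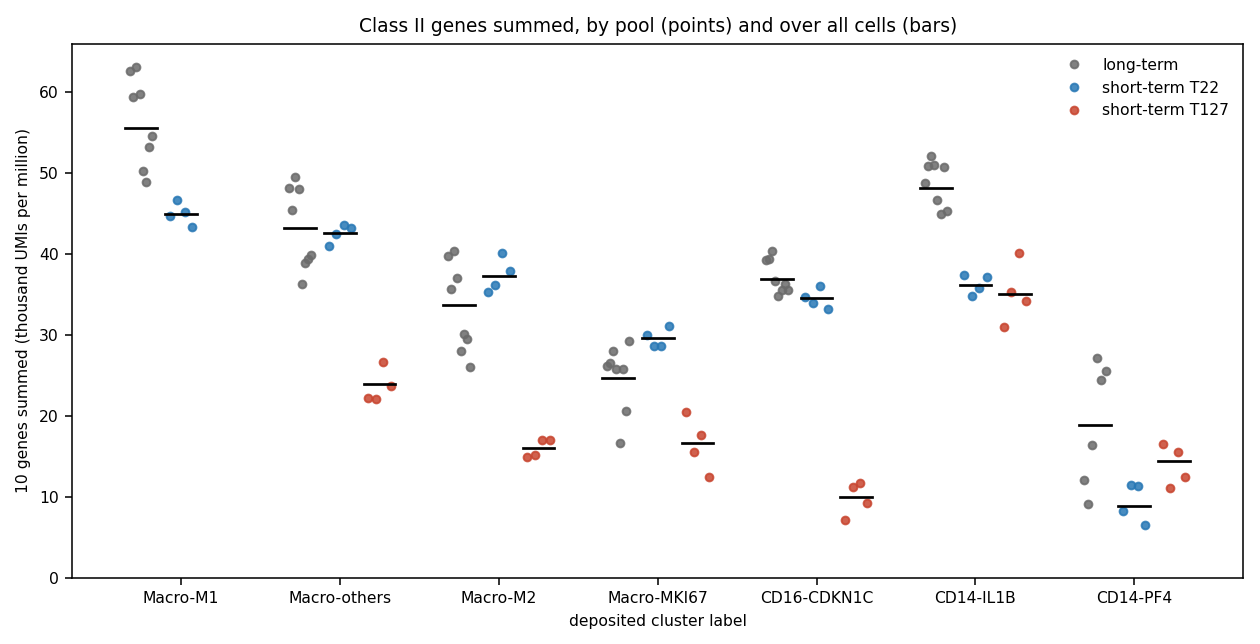
Sum of the 10 class II genes (axis in units of 1000 CPM), by pool (points) and over all cells (bars), in 7 monocyte and macrophage cluster names. T127 points lie below all T22 points in Macro-others, Macro-M2, Macro-MKI67 and CD16-CDKN1C, and overlap them in CD14-IL1B and CD14-PF4.

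In Macro-M2 cells 5 of the 9 members measured above the minimum were called lower in T127 (Cd74, H2-Aa, H2-Ab1, Ciita and H2-Oa) and 0 were called higher. Over all genes of this cluster name, 6.04% were called lower and 7.91% higher. Cd74 was at 4676.9, 4500.1, 4986.5 and 5169.1 CPM in the T127 pools and 11354.6, 11739.2, 14283.2 and 12610.6 CPM in the T22 pools, a ratio of 0.3888. H2-Aa was at 3334.8, 3499.0, 3861.3 and 4057.3 CPM in T127 and 10050.4, 10002.3, 9903.8 and 10505.7 CPM in T22, a ratio of 0.3635. H2-Ab1 was at 5408.9, 5756.2, 6473.4 and 6269.8 CPM in T127 and 12211.2, 12614.7, 14125.1 and 13003.7 CPM in T22, a ratio of 0.4609. For each of these genes every T127 pool was below every T22 pool by a wide margin.

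The transactivator moved with the chains in Macro-M2 cells. Ciita was at 52.92, 41.67, 57.13 and 53.3 CPM in the T127 pools and 111, 124.8, 122.2 and 117.7 CPM in the T22 pools, a ratio of 0.4296 (95% interval 0.3905 to 0.4725). H2-Oa was at 9.42, 10.02, 11.05 and 10.66 CPM in T127 and 34.31, 33.64, 32.35 and 25.6 CPM in T22, a ratio of 0.3267 (0.2658 to 0.4002). H2-Eb1 had a ratio of 0.7705 and H2-DMb1 of 0.7683, without overlap of pools but under 2-fold.

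H2-DM was closer between the models. H2-DMa was at 733.1, 670.1, 830.7 and 739.4 CPM in T127 Macro-M2 cells and 752, 760.9, 739.4 and 757.6 CPM in T22, a ratio of 0.9823 (95% interval 0.9528 to 1.013) with overlapping pools. H2-DMb2 was higher in T127, at 128, 107.3, 132.6 and 148.7 CPM against 89.21, 104, 75.99 and 69.78 CPM, a ratio of 1.518 (1.395 to 1.653). H2-DM therefore stood higher against the chains. There were 13.55 H2-DM UMIs per 100 I-A UMIs in T127 Macro-M2 cells (pools 12.93 to 14.52) and 6.105 in T22 (pools 5.872 to 6.3). The same ratio was 15.73 against 5.556 in CD16-CDKN1C, 14.78 against 6.314 in Macro-MKI67, 10.51 against 4.81 in Macro-others and 9.566 against 5.604 in CD14-IL1B cells.

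H2-DMb2 was higher in T127 in 5 of the 6 monocyte and macrophage names, beyond the pools of T22. In CD14-IL1B cells it was the only member called, with 1 called higher and 0 lower of 10, where 6.97% of all genes were called higher and 2.76% lower. It was at 281.2, 346.5, 366.3 and 414.2 CPM in the T127 pools and 136, 117, 149.7 and 125.2 CPM in the T22 pools, a ratio of 2.697 (95% interval 2.386 to 3.054). H2-DMa in these cells had a ratio of 1.672, H2-Eb1 of 1.328, H2-Aa of 0.7689 and H2-Oa of 0.6255, each without overlap of pools. Ciita had a ratio of 1.003 with overlapping pools. CD14-IL1B cells of T127 and T22 thus had near-equal sums of the 10 genes with a different balance of H2-DM, H2-O and chains. The make-up of this name differed too, with cDC1 genes in 51.75% of T22 and 30.56% of T127 cells and cDC2 genes in 2.797% and 17.36%, and its part was not tested.

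In Macro-others cells H2-DMb2 was called higher and Cd74 and H2-Aa lower, of 9 members, beside 10.6% of all genes called higher and 6.24% lower. H2-DMb2 was at 210, 172.6, 241.2 and 277 CPM in T127 and 71.34, 63.95, 52.6 and 52.62 CPM in T22, a ratio of 3.815 (95% interval 3.431 to 4.24). Cells with dendritic cell genes, defined with their levels further on, were also more frequent under this name in T127. Those with cDC2 genes were 13.59% in T127 and 0.7111% in T22, those with mature genes 11.65% and 0.9778%. Over all monocyte and macrophage names of T127, H2-DMb2 was at 440.8 CPM in cells with cDC2 genes and 101.9 CPM in cells without dendritic cell genes. The part of these cells in the ratio was not tested. In CD14-PF4 cells 2 of 9 members were called higher (3.5% of all genes) and 0 lower (4.41%). H2-DMa was at 833.3, 566.9, 899 and 817.8 CPM in T127 and 253.5, 400, 254.7 and 287.1 CPM in T22. H2-DMb2 was at 277.8, 131.6, 135.8 and 196.3 CPM against 55.11, 33.9, 46.92 and 32.3 CPM. Both genes were higher in every T127 pool.

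CD16-CDKN1C cells had 4 of 9 members called lower in T127 (Cd74, H2-Aa, H2-Ab1 and H2-Oa), beside 5.96% of all genes called lower and 13% higher. H2-Aa was at 1421.3, 2663.7, 2711.6 and 2234.0 CPM in T127 and 10589.5, 10125.4, 9456.1 and 9687.1 CPM in T22. H2-Oa was at 0, 2.185, 13.95 and 12.14 CPM in T127 and 44.45, 42.44, 47.09 and 38.71 CPM in T22. Ciita had a ratio of 0.509 with overlapping pools, and H2-DMb2 of 0.7674, also overlapping. No H2-Ob UMI was counted in T127 cells, against 67 in T22 cells. Macro-MKI67 cells had 3 of 9 members called lower (H2-Aa, Ciita and H2-Oa) and 0 higher, beside 6.41% and 7.26% of all genes. The ratio of T127 to T22 was lower for H2-Aa than for H2-Ab1 in all 6 names, and the balance of these chains also separated the long-term pools.

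**Figure D4:**
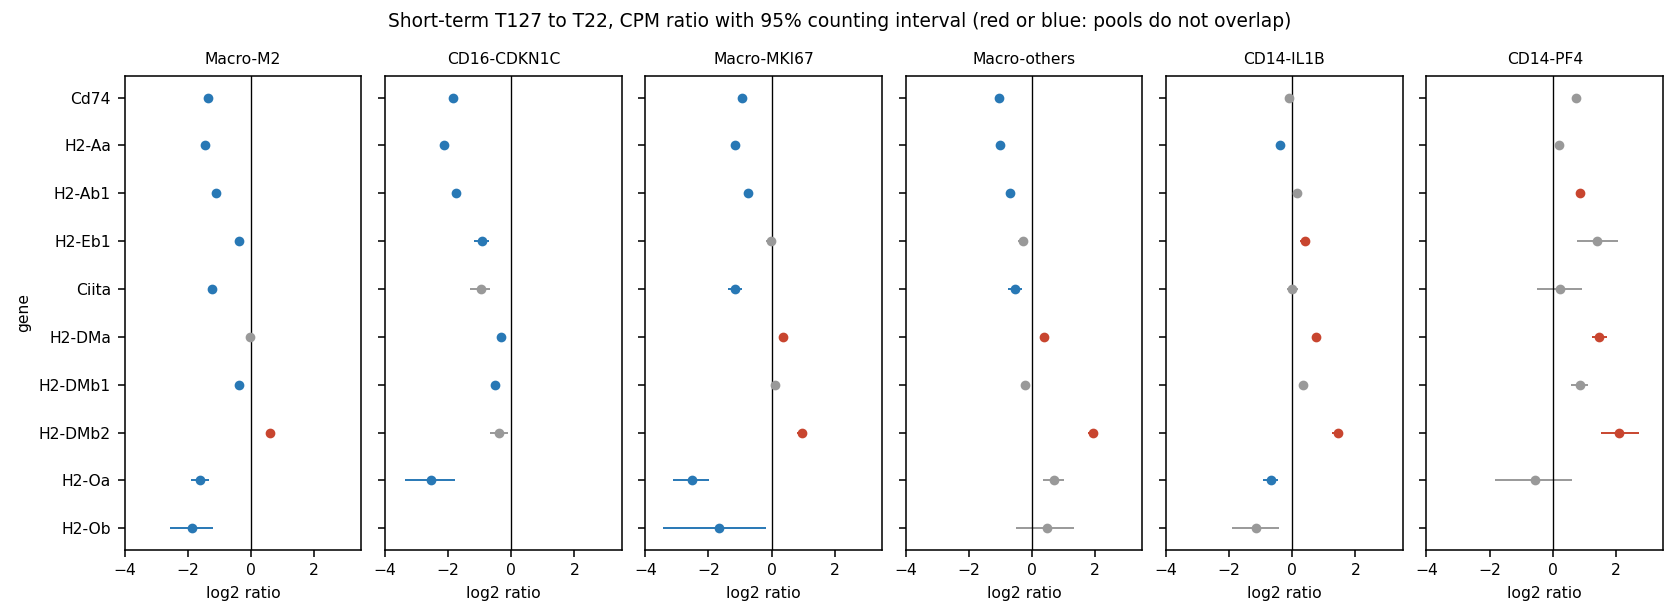
Log2 ratio of the CPM of each class II gene in short-term T127 to that in short-term T22, for 6 cluster names, with 95% counting intervals, red or blue where the 4 pools of each model did not overlap, grey where they did, and not drawn under 3 UMIs in a model. Chain genes and H2-Oa lie left of 0 in Macro-M2, CD16-CDKN1C and Macro-MKI67, while H2-DMb2 lies right of 0 in every panel but CD16-CDKN1C.

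Over the members tested, the median log2 ratio of T127 to T22 was -1.12 in Macro-M2, -0.96 in CD16-CDKN1C, -0.75 in Macro-MKI67, -0.28 in Macro-others, 0.07 in CD14-IL1B and 0.85 in CD14-PF4 cells. The median over all genes tested was 0.1, 0.26, 0.11, 0.16, 0.21 and 0.01 in the same order.

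Cells outside the myeloid names also held less class II message in T127. Cd74, H2-Aa and H2-Ab1 were called lower in endothelial cells (3 of 4 members, 2.78% of all genes), CD4_Tcm-TCF7 cells (3 of 5, 5.81%) and NK cells (3 of 5, 5.11%), and 0 members were called higher (2.19%, 4.83% and 2.88%). C1qa was at 14.1, 29.2 and 9 CPM in these T127 cells and 17, 45.4 and 56.4 CPM in T22 cells, which in endothelial cells rests on 16 and 14 UMIs with overlapping 95% intervals. The part of free macrophage RNA was not tested. In i_CAF cells 0 of 4 members were called either way (4.56% of all genes higher, 8.29% lower). The i_CAF sum in T127 rested on pool 3, at 298.7 CPM, where the other pools had 13.89 to 25.41 CPM. Without it the T127 i_CAF level was 17.8 CPM instead of 93.94 CPM. The T22 i_CAF pools were uneven too, from 66.14 to 818.1 CPM around 311.5 CPM.

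Single cells showed whether a low sum came from all cells or from a share of them. Each cell was thinned to 3000 UMIs, so that depth was equal, and cells were put into ranges of under 10, 10 to 49 and at least 50 UMIs of the 10 genes. In T127 Macro-M2 cells 55.37% of 1174 cells held under 10 class II UMIs and 32.37% at least 50. In T22 Macro-M2 cells the shares were 3.881% and 87.16% of 670 cells. The share under 10 was 56.29%, 56.27%, 55.86% and 52.96% in the T127 pools and 3.333% to 4.469% in the T22 pools. The median T127 cell held 6 class II UMIs (quartiles 2 and 83.75) and the median T22 cell 115 (76 and 151).

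T127 Macro-M2 cells thus lay mostly at the low or at the high end, with 12.27% between them and 4.77% (56 cells) with 8 to 11 UMIs, next to the lower limit. Long-term Macro-M2 cells, which come from both models, had 25.04% under 10 (pools 19% to 37.7%) and 64.5% at least 50. CD16-CDKN1C cells had 58.66% under 10 in T127, 5.721% in T22 and 14.98% in the long-term pools. Only cells of at least 3000 UMIs enter these shares, which were 283 of 402 CD16-CDKN1C cells in T127 and 1643 of 4205 in T22. Most T22 cells of this name were thus too shallow and left out. In Macro-others cells 40.78% were under 10 in T127 and 2.044% in T22, and in Macro-MKI67 cells 37.56% and 4.573%. CD14-IL1B cells had 5.556% and 2.098%. Macro-M1 cells had 1.036% in the long-term and 0.7494% in the T22 pools. These ranges cut a continuous count and are not cell types.

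**Figure D5:**
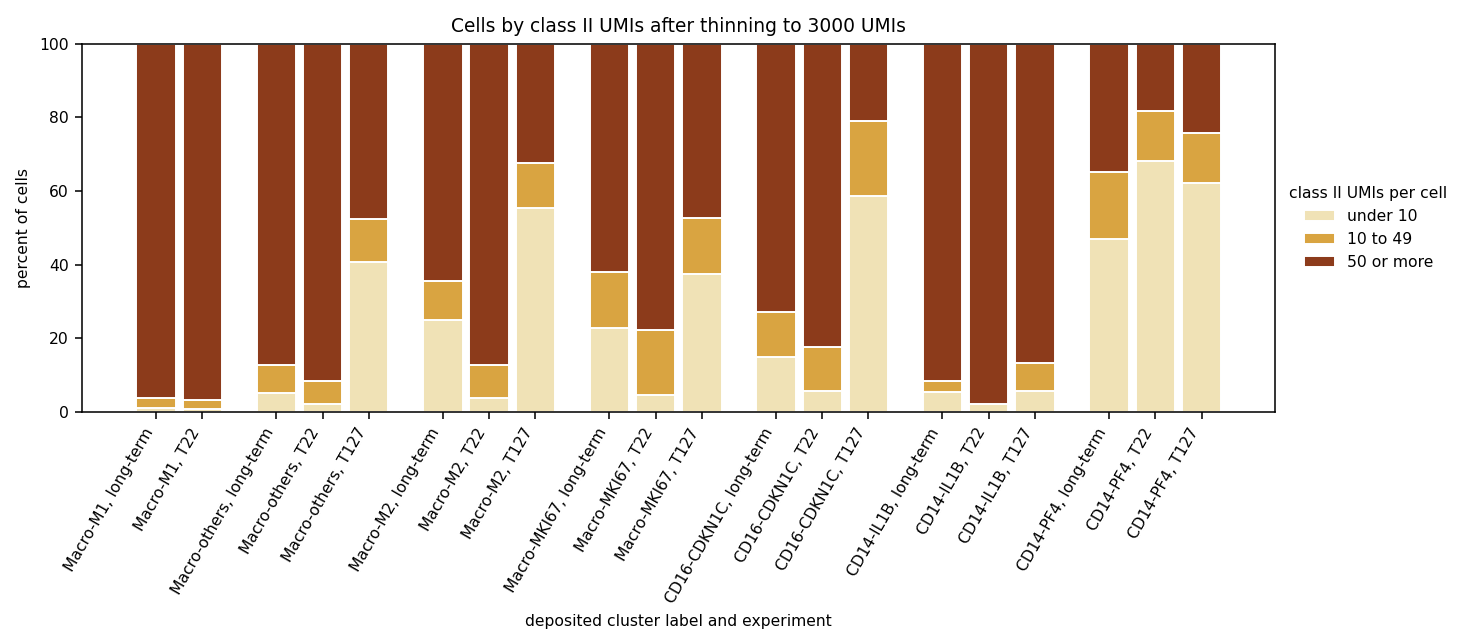
Percent of cells with under 10, 10 to 49 and at least 50 UMIs of the 10 class II genes after thinning each cell to 3000 UMIs, by cluster name and experiment. Cells of fewer UMIs were left out. The pale part (under 10) reaches 55.37% in T127 Macro-M2 and 58.66% in T127 CD16-CDKN1C cells, against 3.881% and 5.721% in T22.

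Within the upper range the models were closer for the sum and differed in single genes. Macro-M2 cells with at least 50 class II UMIs held 39012.3 CPM of the 10 members in T127, 42537.1 CPM in T22 and 52276.5 CPM in the long-term pools. H2-Ab1 was at 15239.5 CPM in T127 and 14970.9 CPM in T22 in this range, and Ciita at 124.6 and 115.3 CPM. H2-Aa was at 9307.0 and 11475.5 CPM. H2-DMa was at 1418.4 CPM in T127 and 843.6 CPM in T22, H2-DMb1 at 1002.6 and 620.4 CPM, and H2-DMb2 at 269.3 and 97.6 CPM. The range fixes the sum, so these values describe its make-up.

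The lower range is fixed by the sum, most of which is Cd74, H2-Aa and H2-Ab1, so its values describe the make-up of these cells. T127 Macro-M2 cells with under 10 class II UMIs held 0.5128 CPM of Ciita, 24.1 CPM of H2-Aa and 62.05 CPM of H2-Ab1. They kept 400 CPM of Cd74 and 283.1 CPM of H2-DMa, against 11286.8 and 1418.4 CPM in the upper range. H2-DMb1 was at 62.56 CPM, H2-DMb2 at 22.05 CPM and H2-Eb1 at 1.026 CPM. In the long-term pools the lower range held 0 CPM of Ciita, 139.2 CPM of H2-Aa and 137.7 CPM of H2-DMa, and the upper range 55.51, 17144.7 and 803.4 CPM.

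Genes that the ranges did not use differed between them. In T127 Macro-M2 cells Mrc1, the mannose receptor CD206 that the study paired with MHCII to gate macrophages in flow cytometry, was at 1435.9 CPM in the lower and 679.8 CPM in the upper range. Long-term cells had 1434.2 and 240.6 CPM. Ly6c2, a monocyte surface gene, was at 943.6 and 359.6 CPM in T127 and 354.2 and 22.38 CPM in the long-term pools. Cells low in class II thus held more Mrc1 and more Ly6c2 in both experiments.

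Macrophage identity genes were present in both ranges. The C1q genes summed to 6243.1 CPM in the lower and 7227.2 CPM in the upper range of T127 Macro-M2 cells, Lyz2, a macrophage lysozyme, was at 17707.7 and 13398.2 CPM, and Spi1, a myeloid transcription factor, at 527.2 and 593 CPM. Adgre1, encoding F4/80, was at 191.3 and 53.51 CPM. Of the lysosomal proteases, Ctss was at 2585.1 and 3529.8 CPM, Ctsl at 653.8 and 117.5 CPM and Lgmn at 1581.5 and 434.2 CPM. Genes seen in dendritic cells were mainly in the upper range, with Cd209a at 6.667 and 217.5 CPM and Epcam at 3.077 and 313.2 CPM. Epcam is also an epithelial gene, and it was at 10.24 and 109 CPM in the long-term pools. S100a8, a neutrophil gene, was at 501.3 CPM in the lower and 49.18 CPM in the upper range of the long-term pools.

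Cells with dendritic cell genes were spread over the monocyte and macrophage names, since no conventional dendritic cell name was given. A cell was counted as a carrier where its 3000 thinned UMIs held at least 2 of Xcr1 and Clec9a (cDC1 genes), of Ccr7, Fscn1 and Ccl22 (mature genes) or of Cd209a and Clec10a (cDC2 genes). These lists are not strict, since the paper used Clec10a for pDC and names CCL22 among cytokines of pro-tumor macrophages. Of the 355 long-term cDC2 carriers 105 were Macro-M2 cells, and whether carriers are macrophages was not tested. In CD14-IL1B cells cDC1 carriers were 19.28% of the long-term, 51.75% of the T22 and 30.56% of the T127 cells, and cDC2 carriers 13.68%, 2.797% and 17.36%. Mature carriers were 16.33% of long-term CD14-PF4 cells. In T127 Macro-others cells mature carriers were 11.65% and cDC2 carriers 13.59%.

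In the long-term pools carriers of cDC1 and cDC2 genes held more H2-DM, H2-O and Ciita than other cells, over the monocyte and macrophage names together. Of the cDC1 carriers 86 were CD14-IL1B cells, a name that had 2990.1 CPM of H2-DM as a whole. Carriers and other cells were not compared within a name. The 110 cDC1 carriers had 2721.2 CPM of H2-DM, 215.2 CPM of H2-O and 127.3 CPM of Ciita. The 355 cDC2 carriers had 3031.9, 110.8 and 103.3 CPM. The 12640 cells without these genes had 1595.9, 24.89 and 39.93 CPM. The 10 genes summed to 48200.0 CPM in cDC1, 51023.5 CPM in cDC2 and 40086.7 CPM in other cells. In T22, H2-DM in cDC1 carriers was at 1354.6 CPM (95% interval 1246.0 to 1470.2), which overlapped the 1291.6 CPM (1273.1 to 1310.4) of other cells.

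Mature carriers held less H2-DM and Ciita than cDC1 and cDC2 carriers. The 179 long-term mature carriers had 28832.4 CPM of the 10 genes, 763.5 CPM of H2-DM and 40.97 CPM of Ciita, beside 102.4 CPM of H2-O (95% interval 77.16 to 133.3), close to cDC2 carriers. In T22 the mature carriers had the highest H2-O of the 4 groups, at 268.4 CPM. In T127 the contrast with other cells was larger, since the other cells were low. There, 48 cDC1 carriers had 38680.6 CPM of the 10 genes, 152 cDC2 carriers 36445.2 CPM, 68 mature carriers 22916.7 CPM and 1816 other cells 13161.3 CPM. Ciita was at 215.3, 127.2, 49.02 and 42.77 CPM in the same order. In T22 all 4 groups lay between 34200.9 and 39796.8 CPM.

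Ciita was found in few cells at equal depth. After thinning to 3000 UMIs it was present in 12 of the 44 long-term B cells deep enough (27.27%, of 309 in all), 21.75% of CD14-IL1B, 13.47% of Macro-M1 and 9.373% of Macro-M2 cells, against 0% to 0.1728% of malignant cells. In Macro-M2 cells of the short-term pools the share was 25.37% in T22 and 10.48% in T127. Without thinning these shares were 66.27% and 26.06%, so the order of the models was the same at full depth.

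Other genes of class II presentation were followed from a list of regulators, proteases, costimulators and ligands, of which 31 were measured. In Macro-M2 cells 4 of 28 tested were called higher in T127 (Ctsl, Cd80, Mif and Cd44) and 3 lower (Irf1, Irf8 and Lag3), beside 7.91% of all genes higher and 6.04% lower. Ctsl, a protease that can cut the invariant chain, was at 432.6 CPM in T127 and 96.53 CPM in T22, a ratio of 4.482. Ctss, the main such protease of these cells, had a ratio of 0.552 (2920.2 and 5290.4 CPM). In Macro-others cells Ctss had a ratio of 0.4531 and was called lower, where 4 of 29 list genes were called higher (10.6% of all genes) and 3 lower (6.24%). Ctsl was thus higher and Ctss lower in T127 in the same cells.

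Cd80, a ligand of the T cell receptors CD28 and CTLA-4, was called higher in T127 in all 6 monocyte and macrophage names. Its ratio was 7.083 in Macro-M2 cells (140.8 and 19.88 CPM), 7.41 in CD16-CDKN1C, 7.88 in Macro-MKI67, 17.53 in Macro-others, 2.844 in CD14-IL1B and 3.41 in CD14-PF4 cells. Cd44, which joins Cd74 as a receptor for the cytokine Mif, had a ratio of 4.071 in Macro-M2 cells, and Mif of 2.266. Higher Cd80 thus stood beside lower chain transcripts in Macro-M2, CD16-CDKN1C, Macro-MKI67 and Macro-others cells. In CD14-IL1B cells it stood beside ratios of 0.7689 for H2-Aa, 1.099 for H2-Ab1 and 0.9383 for Cd74. In CD14-PF4 cells these ratios were 1.157, 1.822 and 1.659.

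Interferon regulatory factors were lower in some T127 myeloid names. Irf1, which drives Ciita after interferon-γ, was at 13.64 CPM in T127 and 39.42 CPM in T22 Macro-M2 cells, a ratio of 0.3459. Irf8 was at 160.7 and 333.4 CPM, a ratio of 0.4819, and in CD14-IL1B cells it was at 1388.3 and 1227.5 CPM with overlapping pools. Outside the myeloid names Irf8 was called higher in T127 endothelial cells (1 of 21 list genes, 2.19% of all genes), CD4_Tcm-TCF7 cells (4 of 25, 4.83%) and NK cells (3 of 23, 2.88%), with ratios of 2.326, 10.94 and 3.143. In these names 0, 0 and 2 list genes (Ifng and Lgmn) were called lower, beside 2.78%, 5.81% and 5.11% of all genes. In i_CAF cells Irf1 was called lower, as 1 of 5 lower and 3 higher among 23 list genes, beside 8.29% and 4.56% of all genes. Lag3, a class II receptor known from T cells, had a ratio of 0.1306 in Macro-M2 cells (4.217 and 32.29 CPM) and was called lower in 5 myeloid names. It was called higher in CD4_Tcm-TCF7 (76.85 and 2.19 CPM) and NK cells (121.9 and 8.301 CPM). In Macro-MKI67 cells 3 of 29 genes were called higher and 6 lower (Rfx5, Irf1, Irf8, March1, Cd4 and Lag3), beside 7.26% and 6.41% of all genes. Rfx5 binds class II promoters, and March1 encodes a ubiquitin ligase that removes class II from the surface. In CD16-CDKN1C cells 3 of 29 were called higher (Ctsl, Cd80 and Cd44) and 1 lower (Lag3), beside 13% and 5.96% of all genes, so these counts were no larger than the background. In CD14-IL1B cells 1 of 29 was called higher (Cd80, background 6.97%) and 2 lower (H2-Eb2 and Lag3, 2.76%). In CD14-PF4 cells 1 of 28 was called higher (Cd80, 3.5%) and 1 lower (March1, 4.41%).

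The genes whose levels over cluster names were most like the chains were of myeloid and B cells. Over the 22 long-term cluster names the log2(CPM + 1) of 11871 genes was correlated with that of the summed chain genes (H2-Eb1, H2-Ab1, H2-Aa and Cd74). Cluster names share pools and depth, and no p is given. Among the 10 highest were Cd72 (r = 0.977), Fcgr2b (0.975), Ly86 (0.968), Btk (0.964), Spi1 (0.963), March1 (0.961), Cybb (0.961) and Milr1 (0.961). Cd72 and Fcgr2b encode inhibitory receptors of B cells and macrophages, Btk a kinase, and Cybb a part of the phagocyte oxidase. Cd72 had r = 0.976 over 17 T22 cluster names and 0.909 over 14 T127 cluster names. Of the members outside the sum, H2-Oa was least like it, with r = 0.622, followed by H2-Ob with 0.759, whereas the others had 0.933 to 0.985.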

How the data were processed

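Tumor cells were hashtagged, pooled and captured for 3′ single-cell sequencing. The authors aligned reads to GRCm38 with Cell Ranger 6.0.0 counting introns, filtered cells by gene number and mitochondrial share in SCANPY and doublets by Scrublet, and clustered and named the cells. The deposited UMI counts per gene and cell were used, without the filtered, normalized matrices. Of 53946 deposited cells, 48824 remained with each shared barcode at its deepest copy, and 5156 of them held under 1000 genes. Doublets were not called again. Pools held 34755906 to 55600377 UMIs.

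From these counts CPM, ratios and shares were computed with numpy 2.4.6, pandas 2.3.3, scipy 1.17.1 and matplotlib 3.10.9 under Python 3.11.15, and tested on simulated data. Intervals (95%) were Clopper-Pearson for shares, exact Poisson for levels and conditional binomial for ratios, and cover counting error only. Log2 ratios add 1 CPM. Thinning to 3000 UMIs left out 6791 cells. Cluster names of under 50 cells were left out of the T127 to T22 ratios, and pools of under 10 cells of a name out of pool ranges. Some smaller names, such as the B cells of the short-term pools, are still described beside others.

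The members and lists were chosen with earlier results of these data known. Named genes are the 10 members, a list of class II pathway genes, markers beside a result, and the 10 genes most like the chains, some of which are not reported here. Promoter motifs and sequences were not analysed, since the reference used here was of another organism.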

Additional observations from a re-analysis of the deposited data

Results flagged for a closer look

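The sum of the 10 genes was looked at by pool in 52 groups of 4 to 8 pools, of which chance alone sets about 1 in 20 apart. In 6 groups the highest pool stood apart from the others by Dixon's criterion. In long-term Malign_1 cells pool 4 had 418 CPM and the other pools 202.5 to 266.3 CPM. A single cell held 16.51% of the pool's UMIs of these genes, the C1q genes were at 79.94 CPM (66.09 to 86.12 in the others), and without pool 4 the level was 230.5 CPM instead of 270 CPM. In long-term pDC pool 1 had 14066.1 CPM from 16 cells, and the others 7576.5 to 10420.2 CPM. In long-term my_CAF cells pool 7 had 531.2 CPM from 11 cells, and the others 377.7 to 433.6 CPM.

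In T22 my_CAF cells pool 3 had 453.6 CPM and the others 127.7 to 149.7 CPM. In that pool 1 cell held 76.47% of the UMIs, and without the whole pool the level was 135.3 CPM instead of 216 CPM. In T127 i_CAF cells pool 3 had 298.7 CPM and the others 13.89 to 25.41 CPM, with 53.85% of 156 UMIs in 1 cell. The C1q genes were at 951.7 CPM in this pool and at 4.277 to 658.4 CPM in the others. In T127 NK cells pool 3 had 167.5 CPM and the others 70.41 to 80.63 CPM, with the C1q genes at 34.25 CPM against 4.694 to 10.52 CPM.

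The order of cluster names turned between the short-term models for 2 of 15 pairs of monocyte and macrophage names, in every pool. CD14-IL1B cells were above Macro-others cells in T127, by 0.55 on the log2 scale (pools 0.47 to 0.67), and below them in T22, by -0.23 (pools -0.29 to -0.13), a difference of 0.78. CD16-CDKN1C cells were below Macro-MKI67 cells in T127, by -0.74 (pools -1.53 to -0.44), and above them in T22, by 0.22 (pools 0.1 to 0.33), a difference of -0.96. These differences were not tested, since each model is 1 sample.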

How the results depend on the processing

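No paired analysis was possible because the results come from no test and the pool numbers link no tumors. Over 27 results, 148 alternatives other than leaving out a pool were computed. Of these, 128 stayed within 1 SD of the pools (counts of genes within 1.5 times), 20 moved and 0 changed direction. Only log2 ratios could change direction, and the short-term ratios of CD14-IL1B and CD14-PF4 cells, whose pools overlapped, were not counted for it. Thinning and a minimum of 1000 genes per cell moved long-term B cells from 23158.5 to 18378.8 and 18513.9 CPM, and their log2 ratio to Macro-M1 from -1.26 to -1.66 and -1.58. Of 309 B cells, 219 held under 1000 genes. Thinning moved i_CAF from 1491.9 to 1090.2 CPM (1181.9 CPM without the 5% of cells with the most UMIs), and the log2 ratio of T127 to T22 to -1.44 in Macro-M2 and -1.1 in Macro-others cells. Long-term pools 1 to 4 alone, an alternative chosen after seeing the data as were the other sets of pools, gave 27509.2 CPM in B cells and 61369.3 CPM in Macro-M1 cells. Unthinned Ciita shares in Macro-M2 cells were 66.27% in T22 and 26.06% in T127.

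Genes called higher and lower in T127 Macro-M2 cells were 615 and 470 at a minimum of 10 CPM, 340 and 213 at 50 CPM, and 1048 and 1096 with none. In CD14-IL1B cells they were 527 and 209, then 239 and 93 at 50 CPM, and 682 and 320 with no minimum. By Spearman correlation, 2 of the 10 genes most like the chains were the same. All 152 values with a pool left out stayed within 1 SD. Leaving out a pool can hardly move a value by the SD of those same pools, so this count says nothing about stability. With a pool left out, the ratio of T127 to T22 ran from -1.25 to -1.19 (log2) in Macro-M2 cells. In CD14-IL1B cells it ran from -0.12 to 0.01 and changed sign. Levels of names with few cells and of H2-Ob rest on few UMIs.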
